A study of Arabidopsis thaliana with 27 samples.

Results

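The subject here is a set of 10 Arabidopsis aquaporin genes, the 5 genes of the PIP1 group of the plasma membrane and 5 TIP genes of the tonoplast, the membrane of the vacuole. The set is defined by locus, was chosen with earlier results of these data known, and holds 10 of the 27313 loci in the deposited tables. The PIP1 genes are PIP1;1 (AT3G61430), PIP1;2 (AT2G45960), PIP1;3 (AT1G01620), PIP1;4 (AT4G00430) and PIP1;5 (AT4G23400), whose other names in RefSeq are, in that order, PIP1A, PIP1B, PIP1C, PIP1E and PIP1D. The TIP genes are TIP1;1 (AT2G36830, GAMMA-TIP), TIP1;2 (AT3G26520, GAMMA-TIP2), TIP2;2 (AT4G17340, DELTA-TIP2), TIP2;3 (AT5G47450, DELTA-TIP3) and TIP4;1, which has its locus AT2G25810 as its only other name used here. Most are called by these second names from here on, so that PIP1E is PIP1;4 and PIP1D is PIP1;5. RNA came from root tips of 5-d-old seedlings, 40 to 50 tips for a library, and was read as poly(A) RNA in 27 libraries, 3 in each of 9 groups. The groups were pG1090::XVE ≫ ΔMP, pG1090::XVE ≫ AXR3-1 and Col-0, each sampled after 180 or 90 min with 2.5 μM estradiol and after 90 min with DMSO (mock). ΔMP is a truncated form of the auxin response factor ARF5/MP that Aux/IAA repressors cannot hold back, and AXR3-1 is a stabilized form of the repressor IAA17. According to the paper the pG1090::XVE system drives expression ubiquitously. Where in the root tip the transgenes were switched on was not measured in these libraries. There was no mock of 180 min, so the response of Col-0, which has no inducible transgene, is the control for time and for estradiol.

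Aquaporins are channels of the major intrinsic protein family that let water, and in some members small solutes, cross a membrane along its gradient. PIP channels set the water permeability of the plasma membrane, and in maize PIP1 proteins reach that membrane together with a PIP2 partner. TIP channels let the vacuole exchange water with the cytosol, which matters in root cells whose growth is mostly an enlargement of the vacuole. In Arabidopsis roots, auxin is known to lower the transcripts of many aquaporin genes.

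Auxin response factors bind DNA at elements with the core TGTC, so the stretches before the start of the genes that moved most are shown. TIP4;1 (AT2G25810) lies at chr2:11012499-11014171 on the plus strand of TAIR10.1 and PIP1E at chr4:185285-187680 on the minus strand. GAMMA-TIP2 (chr3:9722443-9723904, minus strand) is printed beside them as a gene whose level did not pass the test in any comparison. The 250 bases before the annotated start are given 5′ to 3′ on the strand of the gene, at chr2:11012249-11012498, chr4:187681-187930 and chr3:9723905-9724154, and capitals mark the 4 bases TGTC, the core of the auxin response element, or their reverse complement.
AT2G25810: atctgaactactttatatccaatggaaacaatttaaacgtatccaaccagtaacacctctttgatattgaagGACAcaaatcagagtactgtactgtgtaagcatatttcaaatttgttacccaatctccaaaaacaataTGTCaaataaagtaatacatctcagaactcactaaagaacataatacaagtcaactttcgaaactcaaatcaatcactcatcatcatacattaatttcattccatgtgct
PIP1E: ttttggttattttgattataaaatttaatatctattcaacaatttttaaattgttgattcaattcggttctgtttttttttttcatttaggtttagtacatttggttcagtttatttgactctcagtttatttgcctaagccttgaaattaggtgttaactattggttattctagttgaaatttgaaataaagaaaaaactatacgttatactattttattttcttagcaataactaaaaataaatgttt
GAMMA-TIP2: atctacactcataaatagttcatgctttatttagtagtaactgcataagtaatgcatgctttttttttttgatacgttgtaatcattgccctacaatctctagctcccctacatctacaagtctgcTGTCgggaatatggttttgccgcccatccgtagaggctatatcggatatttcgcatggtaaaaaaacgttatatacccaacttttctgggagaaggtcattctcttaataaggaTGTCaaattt
The TGTC core stood in these windows 2 times in AT2G25810, 2 times in GAMMA-TIP2 and 0 times in PIP1E, and 8 of the 10 genes held it, against 74.8% of 26635 promoters of this length. The longer element TGTCGG, searched on both strands, stood in 1 of the 10 windows, in GAMMA-TIP2, against 4.16% of all promoters, and TGTCTC in 0 of 10, against 10.9%. Over 1000 bases before the start, TGTCTC was found in GAMMA-TIP and DELTA-TIP2, 2 of 10 genes against 39.5% of promoters, and TGTCGG again in GAMMA-TIP2 alone, against 14.7%. Every TGTCGG or TGTCTC holds a core, and a match says only that the letters are there.

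The other genes lie at 7 separate places. PIP1A is at chr3:22733243-22735394 and PIP1B at chr2:18910081-18911982, both on the plus strand, PIP1C at chr1:225665-227543 on the minus strand, and PIP1D at chr4:12220641-12222468 on the plus strand. GAMMA-TIP is at chr2:15445294-15446621 and DELTA-TIP2 at chr4:9698940-9700472, both on the plus strand, and DELTA-TIP3 is at chr5:19248249-19249622 on the minus strand. All 5 PIP1 genes have 4 coding exons and a coding sequence of 861 or 864 bases. The TIP genes have 2 coding exons, or 3 in AT2G25810, and 750 to 762 coding bases.

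Coding sequences were 79.8% to 87.6% identical within PIP1 and 64.1% to 81.7% within the TIP genes, and 59.6% to 68.2% between the groups. The closest pairs of all were PIP1A with PIP1B at 87.6% and PIP1C with PIP1E at 85.3%. Among the TIP genes the closest were GAMMA-TIP with GAMMA-TIP2 at 81.7% and DELTA-TIP2 with DELTA-TIP3 at 81.5%. Words of 31 bases shared with the coding sequence of another gene made up 0.602% to 2.77% of those of the PIP1 genes and 0% of those of the 5 TIP genes. PIP1B shared the most.

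All 10 genes were well measured. The lowest estimated count of any of them in any library was 831, all 10 passed the filter on low counts, and the libraries held 13634037 to 34272503 assigned read pairs. Log2 expression of libraries of one group correlated at 0.996 to 0.999 over genes. The targeted genes behaved as labelled at 180 min, with log2 fold changes of 7.27 for ARF5 in ΔMP and 4.17 for IAA17 in AXR3-1. Markers of root hair, endodermis, stele, meristem and root cap were detected in every group, with no list member at 0 in all 3 libraries of any group, and the 4 green tissue markers summed to 41.2 to 83.1 TPM in any library. Libraries are named A, B and C after their titles. Since the labels do not say whether those of a group are separate cultures, p-values measure only the spread between these libraries.

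In TPM, a level per length of transcript scaled to the library, GAMMA-TIP2 averaged 2031 and GAMMA-TIP 1965 over the 27 libraries, 12th and 14th of all loci. Both are the γ-TIPs of the vacuole, and in yeast and frog oocytes GAMMA-TIP also passes urea. DELTA-TIP2, a δ-TIP, followed with 1140 TPM, then PIP1B with 993, PIP1A with 903 and PIP1C with 642. At the low end stood DELTA-TIP3, a second δ-TIP that passes ammonia in yeast, with 333 TPM, PIP1D with 237, AT2G25810 with 159 and PIP1E with 112. Dividing read shares by effective length gave the same order.

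**Figure D1:**
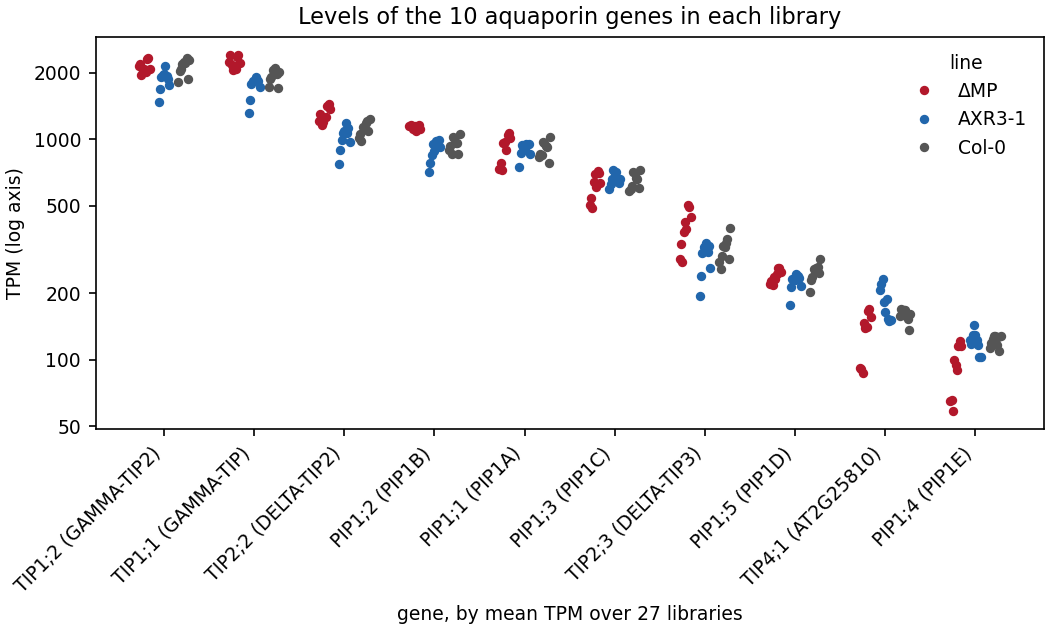
TPM of each of the 10 genes (log axis) in each of the 27 libraries, 9 points for each line (ΔMP red, AXR3-1 blue, Col-0 grey), genes ordered by mean level. The TIP1 genes average 1965 and 2031 TPM, and the low points of AT2G25810 and PIP1E are the ΔMP libraries of 180 min.

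Neighbours in this order were not always apart. GAMMA-TIP2 was above GAMMA-TIP in 18 of 27 libraries, and the ranges of the libraries overlapped, or stood the other way round, in 7 of 9 groups. PIP1B was above PIP1A in 23 of 27 libraries and clear of it in 3 of 9 groups. PIP1D exceeded AT2G25810 in 25 of 27 libraries, and the 2 exceptions were libraries A and B of AXR3-1 at 180 min. Each other neighbour pair kept its order in all 27 libraries. Together the genes made up 0.716% to 0.985% of all TPM by group mean. The TIP genes held 63.8% ± 1.1 of that sum in AXR3-1 at 180 min, 68.9% ± 0.69 in ΔMP at 180 min and 66.3% ± 0.96 in the Col-0 mock (SD, n = 3 each).

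Some genes had more than 1 deposited transcript. PIP1B, which contributes to water transport in Arabidopsis roots, had 3, and AT2G45960.1 took 63.6% to 75.9% of the gene's TPM over the libraries, AT2G45960.3 22.6% to 34.9% and AT2G45960.2 at most 2.37%. PIP1C had 2, with 66.4% to 81.3% in AT1G01620.1. AT4G00430.2, the minor transcript of PIP1E, took at most 1.95% and was at 0 in 8 libraries, and 7 genes had 1 transcript each. Values below are sums over transcripts.

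Most of these genes were lower in ΔMP after 180 min of estradiol than in its mock of 90 min, and relative to the response of Col-0, given further on, 3 of the 10 passed. By edgeR's quasi-likelihood test, with p adjusted over all 19530 genes tested, 7 of the 10 fell against the ΔMP mock and 0 rose, while 12.1% of all genes tested fell and 12.7% rose. A gene is said to rise or fall where its adjusted p is 0.05 or less, and none of the 10 reached a log2 fold change of 1 in size in this comparison. The median log2 fold change of the 10 was −0.28, against 0.01 over all genes tested, and of the 1654 genes at least as abundant as the lowest of the 10, 16.9% fell. TPM of every estradiol library lay below every mock library in 7 of the 10, and in 20.2% of all genes tested.

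PIP1E, a plasma membrane channel that in Arabidopsis leaves also passes hydrogen peroxide, had 65.1, 65.5 and 58.5 TPM in ΔMP at 180 min, against 116, 121 and 116 TPM in the ΔMP mock. All 3 estradiol libraries were far below the mock libraries, and the log2 fold change was −0.87 (standard error 0.07, adjusted p = 4.12e-11). TIP4;1 (AT2G25810), a vacuolar channel that passes urea in frog oocytes, had 91.8, 91.4 and 87.7 TPM in ΔMP at 180 min, against 167, 169 and 156 TPM in the mock. The groups were far apart and the libraries within them close, with a log2 fold change of −0.83 (0.07, adjusted p = 1.1e-11). DELTA-TIP3 had 287, 333 and 277 TPM, against 502, 493 and 442 TPM in the mock, again with no overlap, and fell by 0.65 on the log2 scale (0.09, adjusted p = 1.74e-06).

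PIP1A and PIP1C fell less. PIP1A had 736, 781 and 726 TPM in ΔMP at 180 min, against 1040, 1068 and 1008 TPM in the mock (log2 fold change −0.44, adjusted p = 8.87e-06). PIP1C had 502, 539 and 488 TPM, against 715, 705 and 632 TPM in the mock (−0.39, adjusted p = 2.88e-06). In both, every estradiol library was below every mock library. The 2 smallest falls were in PIP1D (−0.17, adjusted p = 0.0246), with 219 to 228 TPM at 180 min and 251 to 260 TPM in the mock, and DELTA-TIP2 (−0.18, adjusted p = 0.0449), with 1163 to 1304 TPM and 1374 to 1439 TPM. The fall of DELTA-TIP2 failed the threshold when any single library of the 6 was left out (adjusted p = 0.0617 to 0.117), and that of PIP1D without 4 of the 6 (0.0573 to 0.0637).

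PIP1B, GAMMA-TIP and GAMMA-TIP2, which are among the 4 most abundant of the 10, did not pass the test in ΔMP at 180 min. PIP1B averaged 1153 ± 7.1 TPM at 180 min and 1131 ± 21 TPM in the mock (SD, n = 3 each), with a log2 fold change of 0.06 ± 0.07 (SE). GAMMA-TIP averaged 2276 ± 118 TPM at 180 min and 2325 ± 107 TPM in the mock (0.02 ± 0.06), and GAMMA-TIP2 2094 ± 133 TPM and 2244 ± 137 TPM (−0.05 ± 0.07). Of PIP1A and PIP1B, the most alike pair in sequence, the first passed and the second did not, and the difference between them was not tested.

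**Figure D2:**
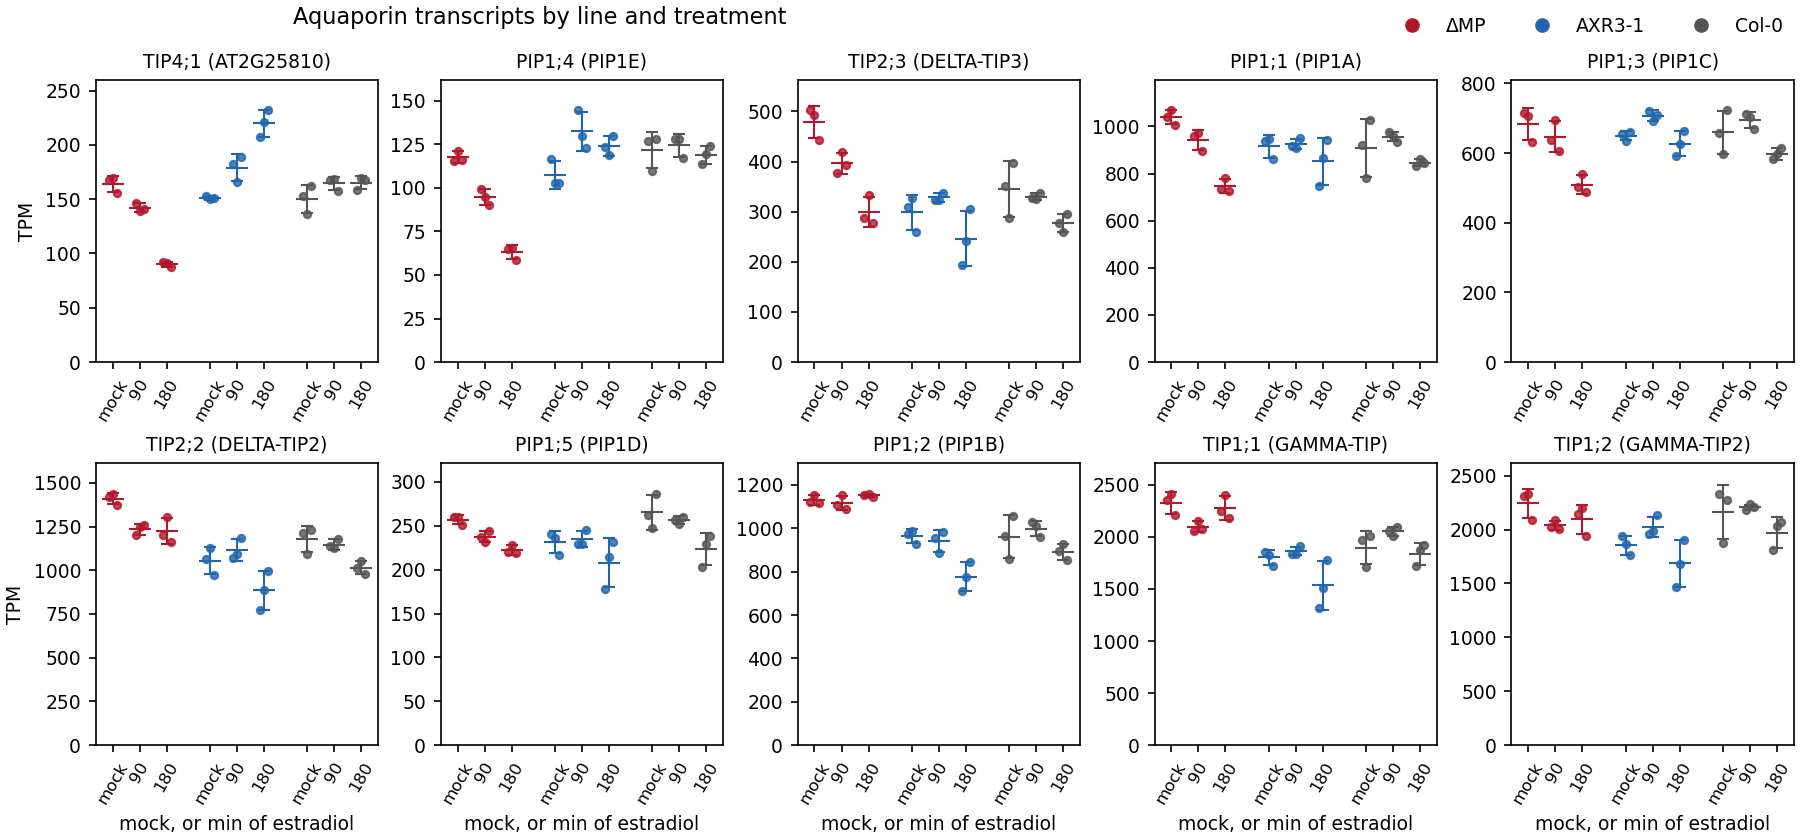
TPM (linear axes from 0) of each gene in the mock and after 90 and 180 min of estradiol, in ΔMP (red), AXR3-1 (blue) and Col-0 (grey). Points are libraries, and bars give mean and SD of 3. TIP4;1 stands at 87.7 to 91.8 TPM in ΔMP at 180 min and at 207 to 232 TPM in AXR3-1 at 180 min, with the Col-0 libraries at 136 to 170 TPM.

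At 90 min the same 2 genes that later fell most had already fallen in ΔMP. PIP1E had 99.4, 94.9 and 90.2 TPM at 90 min, below each of the mock libraries given above (log2 fold change −0.31, adjusted p = 0.00581). AT2G25810 had 147, 139 and 141 TPM at 90 min, also below each mock library (−0.22, adjusted p = 0.0475). These were 2 of 10 genes that fell and 0 that rose, against 2.75% and 1.28% of all genes tested. The call of PIP1E was lost without library C of ΔMP at 90 min (adjusted p = 0.0636), and that of AT2G25810 without any 1 of 5 libraries (0.119 to 0.214) and under limma's test of log2 values (0.0544 to 0.0558). All 10 log2 fold changes were below 0 at 90 min, from −0.31 to −0.02, and in TPM 8 of the 10 had every estradiol library below every mock library, as had 9.56% of all genes tested. Of 6 root hair markers 3 fell at 90 min in ΔMP and 0 rose, and their part in these values was not tested.

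Between 90 and 180 min of estradiol 5 genes fell in ΔMP. AT2G25810 (log2 fold change −0.61, adjusted p = 8.94e-09), PIP1E (−0.55, 4.66e-07), DELTA-TIP3 (−0.38, 0.00289), PIP1A (−0.30, 0.00141) and PIP1C (−0.29, 0.000186) were lower at 180 min than at 90 min. GAMMA-TIP rose (0.17, adjusted p = 0.0465), with 2245, 2407 and 2177 TPM at 180 min and 2052, 2154 and 2080 TPM at 90 min, a call lost under 12 of 17 alternative settings. Of all genes tested, 10.2% fell and 11.1% rose between these times. DELTA-TIP2, PIP1D, PIP1B and GAMMA-TIP2 did not pass the test.

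TIP4;1 (AT2G25810) and PIP1E rose in AXR3-1. At 180 min, 2 of the 10 genes rose and 2 fell against the AXR3-1 mock, while 10.6% of all genes tested rose and 8.88% fell. Of the 1654 genes at least as abundant as the lowest of the 10, 16.1% rose and 9.79% fell. AT2G25810 had 207, 221 and 232 TPM at 180 min, against 153, 150 and 151 TPM in the mock, with no overlap (log2 fold change 0.60, standard error 0.06, adjusted p = 1.16e-08). PIP1E had 123, 119 and 130 TPM, against 117, 103 and 103 TPM in the mock, also with no overlap but a narrow gap (0.29, 0.07, adjusted p = 0.00331).

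PIP1B and DELTA-TIP2 fell in AXR3-1. PIP1B had 710, 776 and 846 TPM at 180 min, against 973, 989 and 926 TPM in the mock, so each estradiol library was lower (log2 fold change −0.25, adjusted p = 0.00908, and 0.0539 without mock library B). DELTA-TIP2 had 770, 889 and 995 TPM, against 1067, 1127 and 972 TPM in the mock, and the groups overlapped (−0.19, adjusted p = 0.0339). Leaving out the 180 min library A (adjusted p = 0.166) or B (0.109), or mock library B (0.266), ended this call. The other 6 genes had log2 fold changes of −0.22 to 0.02 and did not pass.

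The 3 libraries of AXR3-1 at 180 min were the most unequal for this family. Library A was the lowest of the group in 9 of the 10 genes and library C the highest in all 10, and the 10 genes summed to 6300, 7148 and 8030 TPM in libraries A, B and C. GAMMA-TIP had 1314, 1510 and 1782 TPM there and DELTA-TIP3 194, 241 and 305 TPM. The Col-0 mock was next, with 8952, 7696 and 9289 TPM, and its library B was the lowest of the group in all 10 genes. With library A of AXR3-1 at 180 min left out, AT2G25810 and PIP1E still rose.

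At 90 min in AXR3-1 PIP1E passed the test and the other 9 genes did not, with PIP1E at 144, 130 and 123 TPM against 117, 103 and 103 TPM in the mock (log2 fold change 0.29, adjusted p = 0.0102). AT2G25810 had 183, 165 and 189 TPM, above every mock library, and missed the threshold (0.20, adjusted p = 0.0717), which it passed with library totals, with an offset for effective length or under limma's test of log2 values. Of all genes tested, 2.62% rose and 3.23% fell, against 1 and 0 of the 10. The rise of PIP1E did not hold when library A of 90 min (adjusted p = 0.141), mock library B (0.0558) or mock library C (0.0646) was left out, and AT2G25810 passed as well without library B of 90 min. From 90 to 180 min of estradiol AT2G25810 rose further (0.40, adjusted p = 2.15e-05), and DELTA-TIP2 (−0.24, 0.00929) and DELTA-TIP3 (−0.33, 0.0144) fell, 1 and 2 of the 10 against 9.40% and 7.78% of all genes tested. Without library A of 180 min both falls were lost (adjusted p = 0.0708 for DELTA-TIP2 and 0.151 for DELTA-TIP3), as they were without library C of 90 min (0.0697 and 0.0528), and without library B of 180 min that of DELTA-TIP3 was (0.0675). Without library C of 180 min, 5 of the 10 passed. In TPM, 6 of the 10 had every library of 180 min below every library of 90 min, as had 20.1% of all genes tested.

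In Col-0, AT2G25810 and PIP1E did not pass the test at either time. AT2G25810 had 158, 170 and 167 TPM at 180 min, against 153, 136 and 162 TPM in the mock (log2 fold change 0.13, adjusted p = 0.263), and the groups overlapped. PIP1E had 114, 120 and 124 TPM, within the 110 to 128 TPM of the mock (−0.02, adjusted p = 0.924). Of the 10 genes, 3 fell at 180 min and 0 rose, against 4.03% and 2.28% of all genes tested. These were PIP1D (−0.24, adjusted p = 0.00941), PIP1C (−0.21, 0.0247) and DELTA-TIP3 (−0.32, 0.0429). PIP1D had 203, 230 and 238 TPM, against 263, 247 and 287 TPM in the mock, with no overlap, whereas PIP1C and DELTA-TIP3 overlapped with the mock.

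The 3 falls in Col-0 depended on the fit and on single libraries. None passed when only the 6 libraries compared were fitted (adjusted p = 0.0564, 0.107 and 0.0616 in the order given), and without mock library C, which was the highest of its group in 9 of the 10 genes, the values were 0.0982, 0.154 and 0.295. Without library B or C of 180 min, 1 of the 3 passed. At 90 min 0 of the 10 passed by edgeR's test and 0 had an unadjusted p under 0.05, while 0.548% of all genes tested rose and 2.39% fell, and DESeq2 and limma also called 0. Between 90 and 180 min 1 gene fell, PIP1C (−0.20, adjusted p = 0.0332), and 0 rose, against 2.82% and 2.83% of all genes tested. This fall was lost without library B or C of 180 min or A or B of 90 min (adjusted p = 0.0827 to 0.192). Here 8 of the 10 had every library of 180 min below every library of 90 min in TPM, against 11.4% of all genes tested, with AT2G25810 and PIP1E the exceptions.

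**Figure D3:**
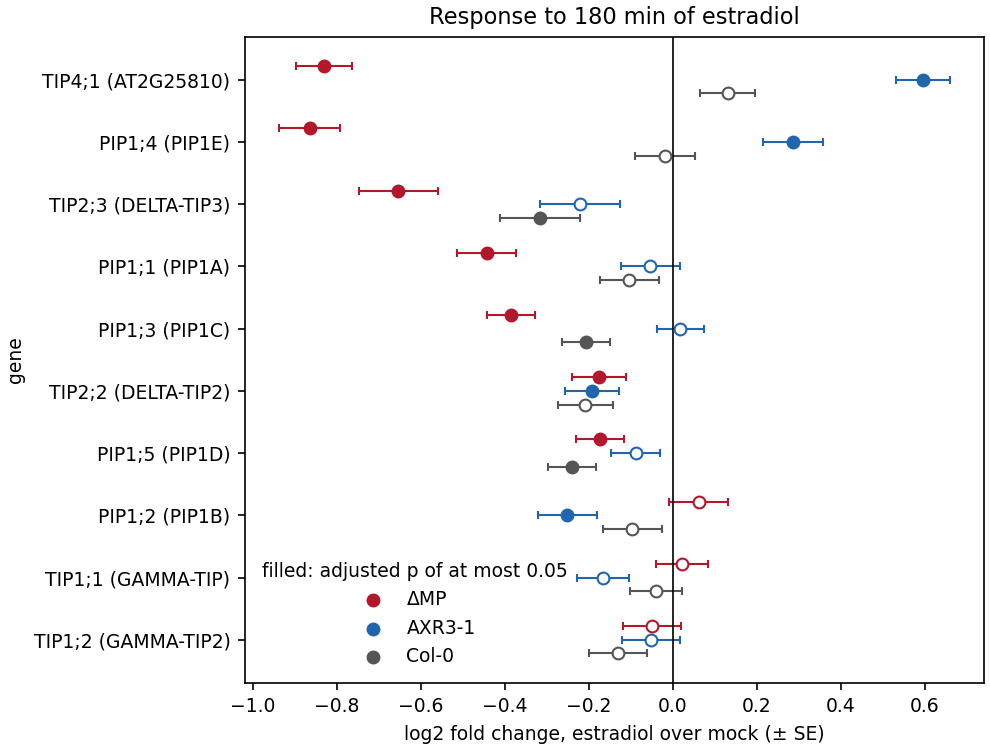
Log2 fold change of estradiol at 180 min over the mock of the same line, with standard error, for ΔMP (red), AXR3-1 (blue) and Col-0 (grey). Filled points passed the test. For TIP4;1 and PIP1E the ΔMP points lie at −0.83 and −0.87 and the AXR3-1 points at 0.60 and 0.29, with Col-0 between them.

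The responses were then compared between lines, with each response being the estradiol group over its own mock. Beyond the response of Col-0, ΔMP at 180 min had a lower response in 3 of the 10 genes and a higher one in 0, against 4.39% and 5.70% of all genes tested. The differences of log2 fold changes were −0.96 for AT2G25810 (standard error 0.09, adjusted p = 2.91e-09), −0.85 for PIP1E (0.10, 2.31e-07) and −0.34 for PIP1A (0.10, 0.0225). That of PIP1A was lost on leaving out Col-0 library A of 180 min (adjusted p = 0.0594), mock library B of Col-0 (0.0902) or mock library B of ΔMP (0.0502). DELTA-TIP3 (−0.34, adjusted p = 0.124) and PIP1C (−0.18, 0.206), which fell in ΔMP against its mock, did not pass here, and both also fell in Col-0. PIP1D and DELTA-TIP2 had differences of 0.07 and 0.03.

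AXR3-1 had a higher response than Col-0 at 180 min in 2 of the 10 genes and a lower one in 0, against 6.89% and 3.97% of all genes tested. AT2G25810 differed by 0.47 (standard error 0.09, adjusted p = 0.00045) and PIP1E by 0.31 (0.10, adjusted p = 0.0471). The call of PIP1E was lost under 15 of 23 alternative settings, 9 of them leaving out 1 of the 12 libraries, and that of AT2G25810 under 0. At 90 min 0 of the 10 passed in either line relative to Col-0 by edgeR's test. For ΔMP, AT2G25810 had a difference of −0.30 (adjusted p = 0.112) and PIP1E of −0.31 (0.139), 3 of the 10 had an unadjusted p under 0.05, DESeq2 called 0, limma 1 and the fit with an offset for effective length 2, 2 passed without Col-0 library C of 90 min and 1 without its mock library C, and 0.737% of all genes tested were higher and 0.717% lower. For AXR3-1, PIP1E had a difference of 0.29 (adjusted p = 0.205) and AT2G25810 of 0.12 (0.776), 1 of the 10 had an unadjusted p under 0.05, DESeq2 and limma called 0, and 0.732% were higher and 0.645% lower. The ΔMP and AXR3-1 differences share the Col-0 libraries.

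**Figure D4:**
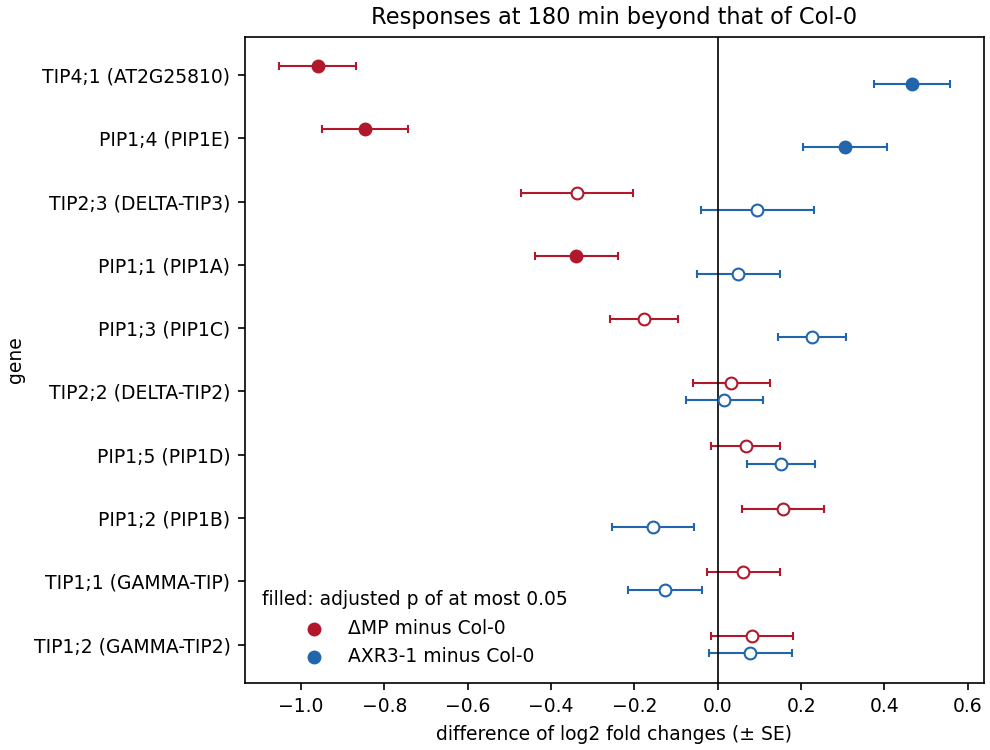
Difference between the log2 fold change at 180 min in ΔMP (red) or AXR3-1 (blue) and that in Col-0, with standard error. Filled points passed the test. TIP4;1 and PIP1E are the genes filled in both lines, on opposite sides of 0.

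Set against each other directly, ΔMP and AXR3-1 differed most in the same 2 genes. The ΔMP response minus the AXR3-1 response at 180 min was −1.43 for AT2G25810 (standard error 0.09, adjusted p = 5.78e-14) and −1.15 for PIP1E (0.10, 8.88e-11), and these 2 of the 10 passed a difference of 1 in size, as did 3.32% of all genes tested in this direction. At any size, 5 of the 10 were lower in ΔMP and 1 higher, against 11.5% and 9.66% of all genes tested. Of the 1654 genes at least as abundant as the lowest of the 10, 15.4% were lower and 6.65% higher. DELTA-TIP3 (−0.43, adjusted p = 0.017), PIP1C (−0.40, 0.000229) and PIP1A (−0.39, 0.00345) were the others that were lower. PIP1B was the one that was higher (0.31, adjusted p = 0.0197), and it averaged 777 ± 68 TPM in AXR3-1 at 180 min and 963 ± 33 TPM in its mock (SD). The call of DELTA-TIP3 was lost under limma's test of log2 values (adjusted p = 0.131 to 0.134) and without library C of AXR3-1 at 180 min (0.122) or mock library C of AXR3-1 (0.0709), and that of PIP1B without library A of AXR3-1 at 180 min (0.0582), mock library B of AXR3-1 (0.0677) or library A of ΔMP at 180 min (0.0548).

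At 90 min the responses of ΔMP and AXR3-1 already differed for PIP1E (−0.60, adjusted p = 0.000112) and AT2G25810 (−0.41, 0.00314). These were 2 genes that were lower in ΔMP and 0 that were higher, against 2.85% and 2.18% of all genes tested, and the count was 4 without mock library B of AXR3-1. Neither call was lost under any of the 23 alternative settings, which include leaving out each of the 12 libraries. The difference of AT2G25810 was thus −0.41 at 90 min and −1.43 at 180 min, and that of PIP1E −0.60 and −1.15.

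The lines were not level before estradiol. The ΔMP mock was higher than the Col-0 mock in 3 of the 10 genes and lower in 0, against 1.84% and 1.98% of all genes tested. DELTA-TIP3 had 502, 493 and 442 TPM in the ΔMP mock, against 352, 286 and 397 TPM in the Col-0 mock, with no overlap (log2 fold change 0.47, adjusted p = 0.00179). GAMMA-TIP had 2351, 2416 and 2208 TPM, against 1970, 1714 and 2006 TPM in the Col-0 mock (0.30, adjusted p = 0.00254). DELTA-TIP2 had 1417, 1439 and 1374 TPM, against 1212, 1092 and 1229 TPM (0.27, adjusted p = 0.00988), and was lost without mock library B of Col-0 (0.0992) or library C of the ΔMP mock (0.0555). Without mock library C of Col-0, 5 of the 10 passed. After 180 min of estradiol, DELTA-TIP3 stood at 299 ± 30 TPM in ΔMP and 277 ± 18 TPM in Col-0 (SD, n = 3 each). AT2G25810 and PIP1E had log2 differences of 0.12 (adjusted p = 0.381) and −0.05 (0.802) between these mocks.

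The AXR3-1 mock differed from the Col-0 mock in 1 gene, PIP1D, which had 240, 236 and 217 TPM against 263, 247 and 287 TPM (log2 fold change −0.21, adjusted p = 0.0447). This was 1 of 10 that was lower and 0 that were higher, against 1.53% and 0.517% of all genes tested, and it was lost under 11 of 17 alternative settings, 5 of them leaving out 1 of the 6 libraries, while 2 genes passed without mock library B of Col-0. AT2G25810 was level between these mocks, at 151 ± 1.6 TPM in AXR3-1 and 150 ± 13 TPM in Col-0. PIP1E averaged 107 ± 8.1 TPM in the AXR3-1 mock and 122 ± 10 TPM in the Col-0 mock (SD). This difference did not pass the test (log2 fold change −0.19, adjusted p = 0.203). After 180 min of estradiol PIP1E averaged 124 ± 5.7 TPM in AXR3-1 and 119 ± 5.2 TPM in Col-0. Its rise in AXR3-1 thus started from a lower mock mean than that of Col-0 and ended near the Col-0 level. All 10 log2 fold changes of the AXR3-1 mock over the Col-0 mock were below 0, with a median of −0.12, against 0.00 over all genes tested.

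Close relatives were also summed before the fit. The 5 PIP1 genes as 1 fell by 0.23 on the log2 scale in ΔMP at 180 min against its mock (adjusted p = 0.00654), and had −0.09 in AXR3-1 (0.37) and −0.13 in Col-0 (0.228). DELTA-TIP2 with DELTA-TIP3 fell in all 3 lines at 180 min, by 0.29 in ΔMP (adjusted p = 0.00186), 0.20 in AXR3-1 (0.0384) and 0.23 in Col-0 (0.0377). The sum of GAMMA-TIP and GAMMA-TIP2 did not pass the test, with −0.01 in ΔMP (adjusted p = 0.925), −0.11 in AXR3-1 and −0.09 in Col-0. The sums are carried by the abundant members, and in none of them did the response of ΔMP at 180 min differ from that of Col-0 (adjusted p = 0.647 to 0.859).

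Other aquaporins and vacuolar transporters were measured in the same fit. The counts of these and of the marker lists at 180 min stand beside shares of all genes tested. Against the mock, 12.1% fell and 12.7% rose in ΔMP, 8.88% and 10.6% in AXR3-1, and 4.03% and 2.28% in Col-0. Relative to the response of Col-0, 4.39% were lower and 5.70% higher in ΔMP, and 3.97% and 6.89% in AXR3-1. Of 8 PIP2 genes, the plasma membrane partners of PIP1, 4 fell and 1 rose in ΔMP at 180 min. The falls were between −0.43 for PIP2;4 and −0.31 for PIP2;3, while PIP2;6 (AT2G39010, PIP2E) averaged 44.7 ± 1.4 TPM at 180 min and 5.43 ± 0.53 TPM in the mock (log2 fold change 3.11, adjusted p = 4.79e-18). In Col-0 at 180 min 0 of the 8 PIP2 genes rose or fell. Relative to the response of Col-0, ΔMP was higher in 1 and lower in 1, and AXR3-1 higher in 2 and lower in 2. At 180 min in AXR3-1, against its mock, 2 of the 8 rose and 2 fell. PIP2E fell (−1.43, adjusted p = 6.39e-06), as did PIP2;1 (−0.38, 1.31e-05). PIP2;4 rose (0.22, 0.0292), as did PIP2;5, at low levels, with 3.28 TPM at 180 min and 0.0952 TPM in the mock (adjusted p = 2.47e-10), from 146 and 4 estimated counts over the 3 libraries of each group. Of 5 further TIP genes 1 passed the filter, TIP2;1, a δ-TIP, with 530 ± 9.5 TPM in ΔMP at 180 min and 377 ± 39 TPM in its mock (0.55, adjusted p = 2.01e-07), and with 187 ± 13 TPM in AXR3-1 at 180 min and 300 ± 14 TPM in its mock (−0.59, adjusted p = 1.23e-07). Against the ΔMP mock it thus moved opposite to its relatives DELTA-TIP2 and DELTA-TIP3. Relative to the response of Col-0, neither DELTA-TIP2 (0.03, adjusted p = 0.916) nor DELTA-TIP3 (−0.34, 0.124) passed in ΔMP at 180 min.

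Of 12 NIP and SIP genes, channels of the plasma membrane and the endoplasmic reticulum, 10 were tested. At 180 min 2 of them fell with ΔMP and 0 rose, and with AXR3-1 there were 4 that rose and 1 that fell. In Col-0 1 fell and 0 rose. Relative to the response of Col-0, ΔMP was lower in 1 and higher in 0, and AXR3-1 higher in 2 and lower in 0. NIP1;1, which lets arsenite into Arabidopsis roots, shared the signs of AT2G25810, with 66.3 ± 3.8 TPM in ΔMP at 180 min and 209 ± 9.8 TPM in its mock (log2 fold change −1.63, adjusted p = 4.64e-19), and with 417 ± 24 TPM in AXR3-1 at 180 min and 200 ± 9.2 TPM in its mock (1.11, adjusted p = 3.04e-15). NIP5;1, the boric acid channel, fell in ΔMP (−0.45, adjusted p = 8.31e-05) and rose in AXR3-1 (0.34, 0.00227). Of 12 transport genes of the tonoplast, 3 fell with ΔMP and 0 rose, and with AXR3-1 there were 7 that rose and 0 that fell. CAX1, the calcium and proton exchanger, had the largest of these changes in both, −0.69 in ΔMP (adjusted p = 9.65e-08) and 0.51 in AXR3-1 (1.3e-05). In Col-0 at 180 min 1 of the 12 rose and 0 fell. Relative to the response of Col-0, ΔMP was lower in 3 and higher in 0. AXR3-1 was then higher in 1 of the 12, where 7 rose against its mock, and lower in 0. The medians of the 4 lists in ΔMP at 180 min were −0.22 for PIP2, 0.55 for the 1 other TIP gene, −0.13 for NIP and SIP and 0.02 for tonoplast transport, against −0.28 for the 10 genes.

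Some markers of cell types also moved in these comparisons, and in root tips taken whole, fewer cells of a type and less RNA per cell cannot be told apart. Of 6 root hair markers, 4 rose and 0 fell in ΔMP at 180 min, with 493 to 516 TPM summed over the list in the estradiol libraries and 271 to 313 TPM in the mock, and 0 rose and 5 fell in AXR3-1, with 95.6 to 122 TPM and 247 to 307 TPM. At 90 min 0 of the 6 rose in either line, and 3 fell in ΔMP, with 187 to 234 TPM summed over the list, and 5 in AXR3-1, with 178 to 245 TPM, against the same mocks and beside 2.75% and 3.23% of all genes tested that fell. The root hair sum thus stood below the mock at 90 min and above it at 180 min in ΔMP. Of 7 endodermis markers, 4 fell and 0 rose in ΔMP (986 to 1069 TPM at 180 min, 1170 to 1244 TPM in the mock), while AXR3-1 had 1 that rose and 1 that fell (855 to 1142 TPM, 991 to 1140 TPM). Of 5 stele markers 0 rose or fell in ΔMP (200 to 217 TPM at 180 min, 194 to 225 TPM in the mock) and 1 fell in AXR3-1 (157 to 185 TPM, 174 to 186 TPM). Of 3 root cap markers 2 fell in ΔMP (25.2 to 27.8 TPM at 180 min, 37.7 to 39.2 TPM in the mock), and 2 fell and 1 rose in AXR3-1 (35.4 to 36.7 TPM, 34.3 to 37.6 TPM). Of 5 meristem markers 1 rose in ΔMP and 0 moved in AXR3-1. Relative to the response of Col-0 at 180 min, ΔMP was higher in 3 root hair markers and 1 meristem marker. It was lower in 1 endodermis and 1 root cap marker, against 5.70% of all genes tested higher and 4.39% lower. AXR3-1 was lower than Col-0 in 5 root hair, 1 endodermis and 2 root cap markers and higher in 1 root cap marker. Of all genes tested, 3.97% were lower and 6.89% higher there. No marker was at 0 in any group, and the part of these cell types in the aquaporin values was not tested.

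Genes of the circadian clock and of low oxygen also moved between the groups. Of 7 clock genes, 4 fell in ΔMP, 5 in AXR3-1 and 4 in Col-0 at 180 min against the mock of 90 min, and 0 rose. In the ΔMP mock 5 of the 7 were higher than in the Col-0 mock, against 1.84% of all genes tested. Of 6 tested genes of low oxygen, 1 fell in ΔMP, 0 in AXR3-1 and 4 in Col-0 at 180 min. Relative to the response of Col-0 at 180 min, 3 of the 6 were higher in ΔMP and 1 in AXR3-1, and 0 were lower in either. Of all genes tested, 5.70% and 6.89% were higher there. In Col-0 at 90 min 3 of them fell, against 2.39% of all genes tested. Against the Col-0 mock, 2 were lower in the ΔMP mock and 1 in the AXR3-1 mock, beside 1.98% and 1.53% of all genes tested. The 7 genes of the list summed on average to 44.2 TPM in the Col-0 mock, 40.9 TPM in the ΔMP mock and 36.3 TPM in the AXR3-1 mock. Of 4 green tissue markers 2 were higher in the ΔMP mock than in the Col-0 mock, against the same 1.84%, beside the 3 TIP genes that were higher there. The 4 markers of the list summed to 67.5 to 71.7 TPM in the ΔMP mock and 41.3 to 49.3 TPM in the Col-0 mock. The part of time of day, oxygen and green tissue in the aquaporin values was not tested.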

How the data were processed

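The authors sequenced poly(A) RNA in 150 bp pairs and deposited estimated counts and TPM for each transcript, made with Salmon 1.3.0 against TAIR10 coding sequences, so reads from UTRs are not counted. For read cleaning, the methods name Rcorrector and Trim Galore, and the submitters' processing notes Trimmomatic. Here the estimated counts were summed per locus, rounded and filtered with edgeR's filterByExpr, which left 19530 genes. These were tested with edgeR 4.0.16 (R 4.3.3, TMM scaling, quasi-likelihood test), with the 9 groups in 1 fit and Benjamini-Hochberg adjustment in each of 17 comparisons. TPM are given as levels. Alternatives were DESeq2 1.42.0, limma 3.58.1 on log2 TPM, other scalings and filters, a replicate block and each library left out. The fit was also run on counts simulated from its own model, which cannot show a misfit to these libraries. Sequences are RefSeq's TAIR10.1, in which 31045 of 32194 matched transcripts had the deposited coding length.

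The genes named are the 10 aquaporins and those of the gene lists that passed the test at 180 min, and no gene met the rule for naming others of like pattern. The 10 genes and the lists were chosen with earlier results of these data known.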

Additional observations from a re-analysis of the deposited data

Results flagged for a closer look

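The response to estradiol differed between lines, by the test of the difference itself (edgeR's quasi-likelihood test), in 13 combinations of gene and comparison. Some were lost under part of 23 alternative settings. In comparisons with Col-0 at 180 min these were PIP1E in AXR3-1 (lost under 15) and PIP1A in ΔMP (under 3). Between ΔMP and AXR3-1 at 180 min they were DELTA-TIP3 (under 5) and PIP1B (under 3). Relative to Col-0 at 180 min, ΔMP differed by −0.34 in PIP1A (adjusted p = 0.0225), −0.85 in PIP1E (2.31e-07) and −0.96 in TIP4;1 (2.91e-09) on the log2 scale. AXR3-1 differed from Col-0 at 180 min by 0.31 in PIP1E (adjusted p = 0.0471) and 0.47 in TIP4;1 (0.00045).

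Between ΔMP and AXR3-1 at 180 min the difference was −0.39 in PIP1A (adjusted p = 0.00345), 0.31 in PIP1B (0.0197), −0.40 in PIP1C (0.000229), −1.15 in PIP1E (8.88e-11), −0.43 in DELTA-TIP3 (0.017) and −1.43 in TIP4;1 (5.78e-14). At 90 min it was −0.60 in PIP1E (adjusted p = 0.000112) and −0.41 in TIP4;1 (0.00314).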

How the results depend on the processing

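Of 44 calls on the 10 genes, 24 held under every alternative and 20 were lost under at least 1, and no direction of a call was reversed. Those that held include PIP1E and TIP4;1 in ΔMP at 180 min, against the mock, Col-0 and AXR3-1. The cause of the losses was not tested, and with 3 libraries in a group each single library weighs on the result. Medians over all genes tested stayed between −0.0736 and 0.0649 under every scaling.

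The number of the 10 genes past the threshold moved as follows. For ΔMP at 90 min against its mock it was 2, with 4 when only the libraries compared were fitted and 1 with limma under each of 3 settings. For AXR3-1 at 90 min against its mock it was 1, with 2 using library totals, an offset for effective length or limma. For Col-0 at 180 min against its mock it was 3, with 0 when only the libraries compared were fitted and 1 with limma. For ΔMP relative to Col-0 at 90 min it was 0, with 2 using the length offset and 1 with limma. For AXR3-1 relative to Col-0 at 180 min it was 2, with 1 using library totals, the length offset, only the libraries compared or limma. For the AXR3-1 mock against the Col-0 mock it was 1, with 0 under the same settings. For AXR3-1 at 180 against 90 min it was 3, with 5 under DESeq2 or no filter, 6 using the length offset or limma and 7 using library totals. For Col-0 at 180 against 90 min it was 1, with 0 when only the libraries compared were fitted.

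Leaving out 1 library at a time gave 5 to 6 genes for ΔMP at 180 min and 0 to 2 at 90 min, 2 to 6 for AXR3-1 at 180 min and 0 to 2 at 90 min, and 0 to 4 for Col-0 at 180 min and 0 at 90 min, each against its mock. Relative to Col-0 it gave 2 to 4 for ΔMP at 180 min and 0 to 2 at 90 min, and 1 to 3 for AXR3-1 at 180 min and 0 at 90 min. Between ΔMP and AXR3-1 it gave 5 to 6 at 180 min and 2 to 4 at 90 min. Between mocks it gave 2 to 5 for ΔMP and 0 to 2 for AXR3-1 against Col-0, and between 180 and 90 min 5 to 6 for ΔMP, 1 to 5 for AXR3-1 and 0 to 1 for Col-0.

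Libraries of the same letter did not pair. Over 108 same-letter pairs the correlation of deviations from group means was −0.175 to 0.203, above 0.1 in 8. With the replicate letter as a block the 17 counts stayed within 1.5 times, and 2 single calls were lost, DELTA-TIP2 in ΔMP at 180 min (adjusted p = 0.0505) and GAMMA-TIP in ΔMP at 180 against 90 min (0.0514).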
